A study of Mus musculus with 16 samples.

Results

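H3K4me1 islands that were listed at 48 h of adipogenesis, absent at 0 h and free of H3K27ac were examined for their position, their neighbouring genes and their occupancy by SETD5-V5 at 6 h. An island is a stretch of the genome that the peak caller SICER2 found enriched in 1 ChIP-seq library, and its score is the caller's measure of that enrichment. The islands were chosen by measured values: they scored above the median of the 48 h H3K4me1 list, overlapped no 0 h H3K4me1 island and overlapped no island in any of 8 H3K27ac lists. Of 49926 H3K4me1 islands at 48 h, 24962 scored above the threshold of 35.66, 4061 of these had no 0 h island, and 1391 of these also had no H3K27ac, which is 2.79% of the list. "Gained" is used below for an island listed at 48 h with no island at 0 h, "members" for the 1391 gained islands without H3K27ac, and "under" for an overlap of at least 1 bp.

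All 16 libraries came from 3T3-L1, a mouse fibroblast line that becomes adipocytes when confluent cells receive MDI, a mixture of methylisobutylxanthine, dexamethasone and insulin. H3K27ac was profiled in cells carrying an empty retroviral vector and in cells carrying V5-tagged SETD5 driven by a weak viral promoter, at 0 h and 48 h, with replicates A and B in each of the 4 groups. SETD5-V5 itself was precipitated through its V5 tag at 0 h and 6 h, again with replicates A and B, and endogenous SETD5 was precipitated with an antibody to the protein at 0 h and 6 h in 1 library each. H3K4me1 was profiled in 1 library at 0 h and 1 at 48 h, so the gain of the mark had no replicate check. The labels name the SETD5 virus for both H3K4me1 libraries, whereas the study's text speaks of preadipocytes without naming a virus, and the cells of origin were not settled here. The labels name no virus for SETD5-V5 replicate A, although the V5 antibody was used there. The SETD5-V5 cells were 1 transduced line with moderate expression. The island lists carry no read counts, so depth per island is unknown. A region missing from a list was below the caller's threshold, and fewer cells with the mark cannot be told apart from less of the mark per cell.

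H3K4me1 is laid down on enhancers by MLL3 and MLL4 and can precede activation, whereas H3K27ac is laid down by p300 and CBP and marks enhancers that are active. An enhancer with H3K4me1 alone is called primed. SETD5 is a SET-domain protein found with the NCoR-HDAC3 co-repressor, which removes acetyl groups from histones, and adipogenesis depends on a cascade in which AP-1 factors, C/EBPβ, C/EBPδ and the glucocorticoid receptor act before C/EBPα and PPARγ.

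Stretches of 101 bases are shown for members that the results below turn on, read from the + strand of the mm9 genome (NCBIM37). Capitals mark exact matches, on either strand, to the AP-1 consensus TGACTCA or the C/EBP consensus TTGCNNAA. Each stretch is centred on the AP-1 match nearest the middle of its island. Where the island held no AP-1 match, the nearest C/EBP match was used. Because the stretches were picked for holding a match, the match itself is no finding: 48% of members and 44.4% of all 48 h islands hold the AP-1 letters somewhere in the island, and 61% and 60.5% hold the C/EBP letters. The names are those of the protein-coding gene with the nearest start site. The first 4 sequences come from the highest-scoring members with an AP-1 match that overlapped SETD5-V5 in both replicates at 6 h.
Casd1, chr6:4545885-4545985: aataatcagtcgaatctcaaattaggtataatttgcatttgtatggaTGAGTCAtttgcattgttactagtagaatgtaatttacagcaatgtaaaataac
Memo1, chr17:74678661-74678761: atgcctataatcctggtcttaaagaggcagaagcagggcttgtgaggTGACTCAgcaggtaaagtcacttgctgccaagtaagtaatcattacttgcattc
Epas1, chr17:87188492-87188592: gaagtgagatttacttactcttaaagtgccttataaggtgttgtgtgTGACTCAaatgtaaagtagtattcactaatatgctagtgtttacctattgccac
Med13l, chr5:119166728-119166828: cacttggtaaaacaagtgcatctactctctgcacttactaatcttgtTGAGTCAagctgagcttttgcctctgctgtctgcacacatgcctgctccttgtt
The next pair comes from the Foxp1 locus, which held more members than any other gene, and both members overlapped SETD5-V5 in each replicate at 6 h.
Foxp1, chr6:98985889-98985989: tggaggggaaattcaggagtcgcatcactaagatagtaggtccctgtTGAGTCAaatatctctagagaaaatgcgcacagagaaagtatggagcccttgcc
Foxp1, chr6:99338373-99338473: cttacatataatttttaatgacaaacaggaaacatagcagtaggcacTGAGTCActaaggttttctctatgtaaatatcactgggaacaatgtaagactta
The last 4 come from members next to a Krüppel-like factor of the fat lineage, a lipase inhibitor, a dexamethasone-responsive phosphatase and an autophagy gene, genes picked after their values were seen. The Klf15 and Atg7 members overlapped no SETD5-V5 island at 6 h, and the Angptl4 and Dusp1 members overlapped islands of both replicates.
Klf15, chr6:90406123-90406223: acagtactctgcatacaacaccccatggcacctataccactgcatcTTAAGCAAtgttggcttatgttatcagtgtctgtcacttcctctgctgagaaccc
Angptl4, chr17:33925944-33926044: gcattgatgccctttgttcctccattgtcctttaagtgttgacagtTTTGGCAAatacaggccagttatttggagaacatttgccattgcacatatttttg
Dusp1, chr17:26605824-26605924: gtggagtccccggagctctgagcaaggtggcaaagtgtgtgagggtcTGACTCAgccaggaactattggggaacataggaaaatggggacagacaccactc
Atg7, chr6:114516441-114516541: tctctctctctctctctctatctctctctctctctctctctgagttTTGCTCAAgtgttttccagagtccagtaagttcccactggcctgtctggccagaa

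The members were modest in score and, for islands above the threshold, short. They ranged from 400 to 7800 bp with a median of 2400 bp and together covered 3.56 Mb. The median length was 2000 bp over all 48 h islands and 3000 bp over all those above the threshold. Their scores ran from 35.7 to 118.8 with a median of 42.6, whereas gained islands with H3K27ac had a median of 46.8 and islands kept from 0 h with H3K27ac a median of 69.4. At the threshold, the 3 lowest members scored 35.6564, 35.6574 and 35.6634, and the 3 nearest islands below it scored 35.6534, 35.6534 and 35.6509. Most members sat close to H3K4me1 that was already listed at 0 h: the median distance to the nearest 0 h island was 5 kb, 181 members (13%) had one within 1 kb, and 12 touched one. Conversely, 24 islands were left out for overlapping a 0 h island by 200 bp or less.

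The 8 highest-scoring members were spread over 6 chromosomes. They are the extreme of the class by score, whose median was 42.6, and were not typical of it. The top member, chr17:50010001-50015600, lay in an intron of Kif6, which encodes a kinesin motor, scored 118.8 with 8.64% of the 48 h list above it, and overlapped no SETD5-V5 island. The second, chr6:4544801-4548600, lay 4.14 kb upstream of Casd1, a sialic acid acetyltransferase, scored 111.1, and overlapped at 6 h a SETD5-V5 island of 7600 bp in replicate A and 2 that together measured 13400 bp in replicate B. The third, chr8:13024001-13030800, lay in an intron of F7, which encodes coagulation factor VII, 24.4 kb from the nearest 0 h H3K4me1 island and 73.6 kb from the nearest empty-vector H3K27ac island at 48 h in each replicate, and at 6 h, though not at 0 h, it overlapped SETD5-V5 in each replicate. The member in an intron of Vav2, a guanine nucleotide exchange factor, scored 100.9 and overlapped SETD5-V5 in replicate A alone, and the one in an intron of Memo1 scored 99.4 and overlapped it in both. Those nearest to C130026L21Rik (score 100.8), Tet3 (98.2), which encodes an oxidase of 5-methylcytosine, and Pkp1 (97.9), which encodes the desmosomal protein plakophilin, overlapped none at 6 h. Thus 3 of the 8 had SETD5-V5 in both replicates, 1 in replicate A alone and 4 in neither, where 18.6% of all members had it in both. The distance of the F7 member from empty-vector H3K27ac at 48 h was the longest of the 8. That distance was 0.2 and 1.2 kb in replicates A and B for the Casd1 member and 0.6 and 2.2 kb for the Vav2 member.

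The members were distal and mostly intronic. By the centre of the island, 772 (55.5%) lay in introns, 511 (36.7%) between genes, 63 (4.53%) in exons and 45 (3.24%) in promoters, taken as 1000 bp upstream to 100 bp downstream of a start site. Over all 48 h islands the shares were 49.7% intronic, 41% intergenic, 4.21% exonic and 5.01% promoter. The median distance to the start site of a protein-coding gene was 16.3 kb, against 17.7 kb over all 48 h islands, and 36.9% of members lay within 10 kb of one. GC content was 48.5% in members and 46.4% in flanks of equal length on both sides, close to the 47.7% and 45.9% over all 48 h islands. Another member lay within 10 kb of 132 members (9.49%), and the median distance to the nearest other member was 162.6 kb. The median distance to another 48 h H3K4me1 island of any kind was 3.6 kb. Whether members lay closer together than an even spread of the same number was not tested.

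A large part of the class lay on few chromosomes. Chromosomes 6, 19, 17 and 5 held 579 members (41.6%) on 17.3% of the genome, with 240 members on chromosome 6 alone. The density was 1.68 members per Mb on chromosome 19, 1.61 on chromosome 6, 1.1 on chromosome 17 and 0.859 on chromosome 5, against 0.524 over the genome, and chromosome X held 3 members. The H3K4me1 lists leaned to the same chromosomes, which held 30.4% of all 48 h islands and 29% of 0 h islands. In H3K27ac the same 4 held 19.8% and 19.6% of the empty-vector 48 h islands in replicates A and B. Among islands above the threshold without H3K27ac but present at 0 h, the 4 chromosomes held 48.8%, and among gained islands with H3K27ac they held 22.6%. Within a chromosome, members made up 4.08% of the 48 h islands on chromosome 6, 3.91% on 19, 3.61% on 17 and 3.48% on 5, and between 1.29% and 2.68% on the other chromosomes with members. Differences in copy number between chromosomes of the line were not measured here, and their part in this was not tested.

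SETD5-V5 was less frequent at members than over H3K4me1 islands at large. At 6 h replicate A overlapped 446 members (32.1%, exact binomial 95% interval 29.6 to 34.6) and replicate B overlapped 308 (22.1%, interval 20 to 24.4), where over all 48 h islands they overlapped 59.2% and 45.2%. The intervals cover counting error only. Gained islands with H3K27ac were overlapped at 65% in replicate A and 48.5% in replicate B, and islands without H3K27ac that were kept from 0 h at 40.2% and 28.2%. All 48 h islands above the score threshold together gave 72% and 56.5%. Members thus had the lowest share of these classes in both replicates. The differences between classes were not tested, and islands of 1 library are not replicates.

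At 0 h SETD5-V5 overlapped 166 members (11.9%) in replicate A and 66 (4.74%) in replicate B, against 28.9% and 11.8% over all 48 h islands. The mean share of members was 27.1% ± 7.02 (SD, n = 2) at 6 h and 8.34% ± 5.08 (SD, n = 2) at 0 h, and both 6 h libraries lay above both 0 h libraries. The difference of 18.8 percentage points had an exact two-sided permutation p of 0.333, which is the smallest that 2 against 2 allows. The 6 h lists were longer, with 35573 and 27220 islands against 16054 and 6666 at 0 h. With the 6666 highest-scoring islands of each of the 4 lists, members were overlapped at 11.3% in replicate A and 7.62% in replicate B at 6 h and at 5.68% and 4.74% at 0 h, a difference of 4.24 points. With the same number, all 48 h islands were overlapped at 25.4% and 21.3% at 6 h and at 17.6% and 11.8% at 0 h.

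**Figure D1:**
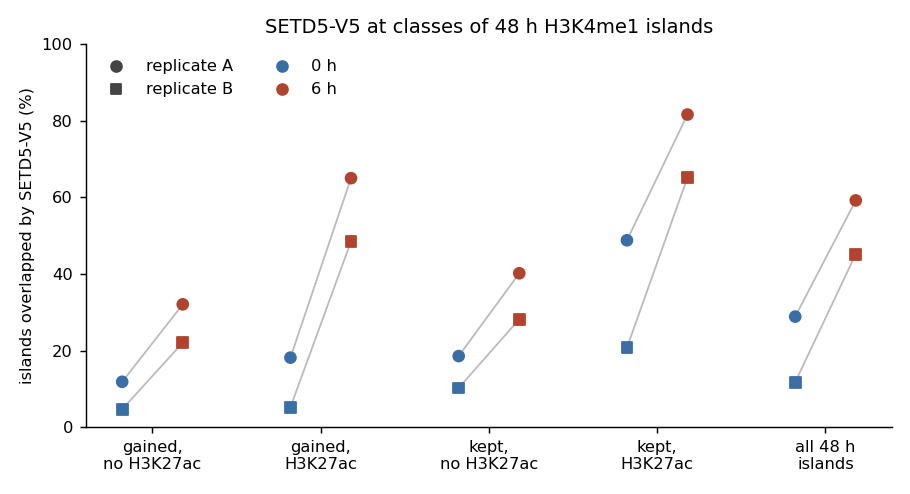
Share of 48 h H3K4me1 islands (%) overlapped by at least 1 bp of a SETD5-V5 island at 0 h (blue) and 6 h (red), with 1 point per library and a line joining libraries of the same letter, for 4 classes above the score threshold and for the whole list. Gained islands without H3K27ac reach 32.1% and 22.1% at 6 h, below every other class in the same replicate.

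The lower share was seen at every length. In replicate A at 6 h, SETD5-V5 overlapped 13.3% of the 15 members of 600 bp or less, 13% of the 54 over 600 to 1000 bp, 29.7% of the 391 over 1000 to 2000 bp and 34.5% of the 931 over 2000 bp. The same length classes of all 48 h islands gave 47.6%, 48.2%, 50.2% and 69.2%. In replicate B the members gave 13.3%, 7.41%, 19.4% and 24.3%, and all islands 38%, 35.9%, 36.4% and 54.4%. By score of the member, the shares in replicates A and B were 27.3% and 19.5% in the 348 lowest-scoring members and 34.5% and 24.7% in the 348 highest-scoring ones.

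**Figure D2:**
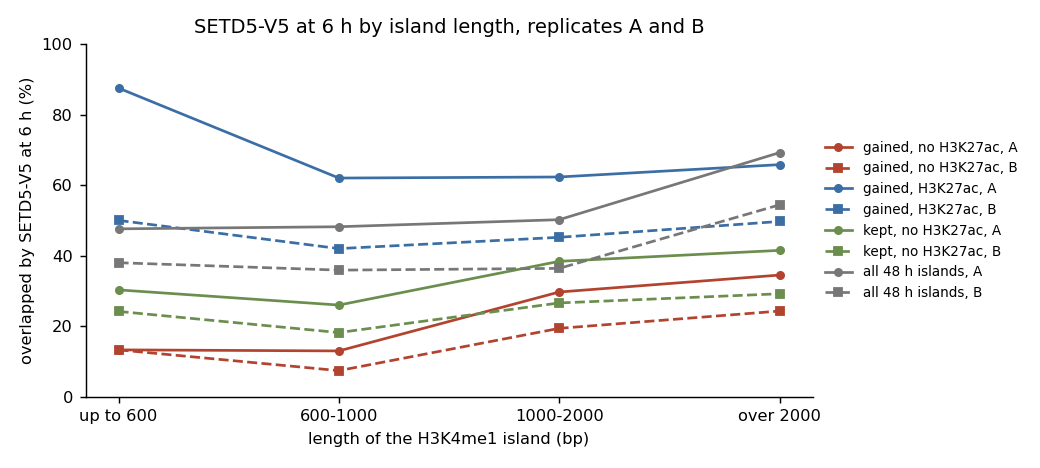
Share of islands (%) overlapped by SETD5-V5 at 6 h against the length of the H3K4me1 island in 4 classes (bp), with solid lines for replicate A and dashed lines for replicate B. In each length class and replicate, gained islands without H3K27ac (red) lie below the other 3 groups, from 13.3% and 13.3% in the shortest to 34.5% and 24.3% in the longest.

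Replicates A and B chose overlapping subsets of members. Both overlapped 259 members (18.6%), A alone 187, B alone 49 and neither 896 (64.4%). The 259 make up 58.1% of the members under replicate A and 84.1% of those under replicate B. Over all 48 h islands these shares were 71.1% and 93.3%. They were 59.9% and 85.3% in kept islands without H3K27ac, and 55.4% and 76.2% in gained islands without it at or below the score threshold. The smaller shared part was thus not particular to members. Of the 259, 176 were under neither 0 h list. Conversely, 62 members were under a 0 h list and neither 6 h list, and 834 (60%) were free of SETD5-V5 in all 4 lists. The SETD5-V5 islands over members had a median length of 5400 bp in replicate A and 5200 bp in replicate B, so a single one could cover several members. The whole lists had medians of 3800 and 4000 bp. Because longer islands overlap any set of regions more readily, this difference does not mark out members.

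The members under SETD5-V5 in both replicates differed in setting from those under neither. They were intronic at 65.6% against 51.2%, had a GC content of 45.5% against 49.5%, and lay a median of 3.8 kb against 5.8 kb from the nearest 0 h H3K4me1 island and 4 kb against 8 kb from the nearest H3K27ac island of any list. Their median lengths were 2600 and 2400 bp and their median scores 43.9 and 42.5, and 37.5% against 43.8% lay on the 4 chromosomes named above. These are descriptions of 1 set of islands and were not tested.

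The 8 highest-scoring members under SETD5-V5 in both replicates were those at Casd1, F7 and Memo1 and 5 others. A member scoring 96.3 lay in an intron of Epas1, which encodes the hypoxia factor HIF-2α, under a SETD5-V5 island of 29400 bp in replicate A and of 7600 bp in replicate B. One scoring 92.8 lay in an intron of Med13l, a Mediator subunit, and one scoring 92.5 in an intron of Hdac4, a class IIa histone deacetylase. A member scoring 84 had Gramd2 as its nearest start site and lay in an intron of Pkm2, which encodes pyruvate kinase, and one scoring 78 lay in an exon of Tssk5, which encodes a testis kinase. Of these last 5, the members in Med13l and Pkm2 were also under SETD5-V5 at 0 h, in replicate A alone, and those in Epas1, Hdac4 and Tssk5 were not. The Casd1 member was under SETD5-V5 at 0 h in replicate B alone, and the Memo1 member in replicate A alone. At Memo1 the 6 h island of replicate A was weak, with 95.8% of its list scoring higher.

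Endogenous SETD5 was seen at few members. It overlapped 30 (2.16%) at 0 h and 59 (4.24%) at 6 h, against 3.26% and 6.71% over all 48 h islands, in lists of 2132 and 3293 islands. Of the 59, 40 had no endogenous SETD5 at 0 h, 40 were also under SETD5-V5 in at least 1 replicate at 6 h, and 27 were under it in both. With 1 library per time there is no replicate check.

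H3K27ac was absent from members by selection, but its distance was not fixed by the rule beyond that. The nearest H3K27ac island of empty-vector cells lay a median of 14.2 kb away in replicate A and 14 kb in replicate B at 0 h, and 10.8 and 10.6 kb at 48 h. In SETD5-V5 cells the medians were 12.6 and 13.4 kb at 0 h and 10 kb in both replicates at 48 h. The 48 h distance was the shorter in each of the 4 pairs of libraries of 1 vector and letter. For islands without H3K27ac that were kept from 0 h, the empty-vector medians were 12.4 and 12.6 kb at 0 h and 12.6 kb in both replicates at 48 h, and the SETD5-V5 medians were 11 and 11.4 kb at 0 h and 12 and 11.6 kb at 48 h. Members within 5 kb of an empty-vector H3K27ac island numbered 335 and 323 in replicates A and B at 0 h and 426 and 419 at 48 h. To the nearest H3K27ac island of any list the median was 6 kb, and 186 members (13.4%) had one within 1 kb. Kept islands without H3K27ac had a median of 6.4 kb, with 12.6% within 1 kb. Because the lists themselves were used to choose the members, these distances are given without a test.

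**Figure D3:**
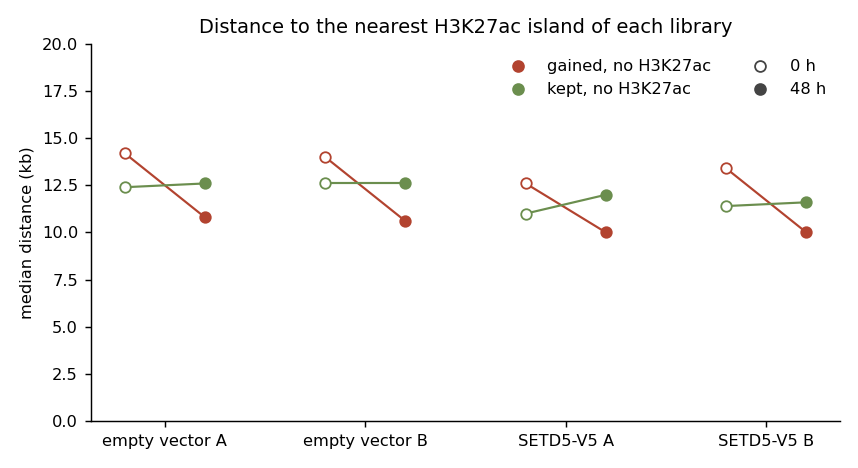
Median distance (kb) from gained islands without H3K27ac (red) and from kept islands without H3K27ac (green) to the nearest H3K27ac island of each library, at 0 h (open) and 48 h (filled), for empty-vector and SETD5-V5 cells and replicates A and B. Red points move from between 12.6 and 14.2 kb at 0 h to between 10 and 10.8 kb at 48 h, and green points stay between 11 and 12.6 kb.

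The members had 1152 protein-coding genes as their nearest, which is 5.15% of 22380, and 2418 genes (10.8%) had a start site within 50 kb of a member. Of the 1152, 980 had 1 member, 127 had 2 and 45 had 3 or more. These genes were long, with a median of 40.3 kb against 15.4 kb for all protein-coding genes, and 733 members lay inside the body of the gene whose start site was nearest.

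Foxp1, which encodes a forkhead transcription factor, had the most members, 13 of the 95 H3K4me1 islands nearest to it at 48 h. They spanned 728.2 kb of chromosome 6 (the gene is at chr6:98875332-99216526 on the - strand) and scored between 40.8 and 70.2. Of these, 3 lay between genes, among them the highest-scoring, chr6:98784601-98789600, while 4 lay in introns of Foxp1 and 6 in introns of the neighbouring Eif4e3, a cap-binding protein gene. All 13 overlapped SETD5-V5 in both replicates at 6 h and none did at 0 h in either replicate, but replicate A covered them with 11 islands and replicate B with 13, so the members were not all covered separately. Of the 82 other 48 h islands of Foxp1, 75 (91.5%) were under SETD5-V5 in both replicates as well, so the 13 members did not stand apart from their locus. Pdzrn3, a ubiquitin ligase gene on the same chromosome, had 4 members, all under SETD5-V5 in both replicates, as were 27 of its 33 other islands (81.8%).

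The other 6 of the 8 genes with the most members had fewer of them under SETD5-V5. Atg7, which encodes the E1-like enzyme of autophagy, had 6 members and its neighbour Hrh1, which encodes the histamine H1 receptor, had 5, and none of these 11 was under SETD5-V5 in either replicate at 6 h. Of the other 48 h islands, 2 of 27 at Atg7 and 2 of 21 at Hrh1 were under it in both replicates. The promoter of Hrh1 carried H3K27ac at 0 h in each empty-vector replicate and in 1 of 2 SETD5-V5 replicates, and at 48 h in no library. That of Atg7 carried it in each empty-vector replicate at both times. Pkp1 had 4 members and Chn2, which encodes the Rac GTPase-activating protein β-chimaerin, had 4, again with SETD5-V5 at none. The Chn2 promoter had H3K27ac in neither replicate at 0 h and in both at 48 h, in empty-vector and in SETD5-V5 cells. Col4a1, a basement membrane collagen, and Etv6, an ETS-family repressor, had 4 members each, of which 1 each was under SETD5-V5 in both replicates and 3 each in at least 1. At Col4a1, 2 of the 3 were covered by SETD5-V5 islands of 273600 bp in replicate A or 220400 bp in replicate B, and 1 by an island of 3800 bp in replicate B alone. Of the other 48 h islands, 20 of 23 at Col4a1 (87%) and 17 of 29 at Etv6 (58.6%) were under SETD5-V5 in both replicates.

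Of 31 adipogenic regulators, 7 (22.6%) had a member nearest to them, against 5.15% of all protein-coding genes. The same list had a median of 6 H3K4me1 islands per gene at 48 h against 1 over all protein-coding genes, so more islands of any kind fell to its genes. The Klf15 member, chr6:90405201-90406800, lay 6.57 kb upstream of the start site of this late adipogenic Krüppel-like factor, scored 36, and was free of SETD5-V5 in all 4 lists. The promoter of Klf15 had H3K27ac in neither empty-vector replicate at 0 h and in both at 48 h, and in no SETD5-V5 library at either time. The Klf9 member, chr19:23030001-23032000, lay 184.7 kb upstream in an intron of Trpm3 and was the only one of the list under SETD5-V5 in both replicates at 6 h. Zfp423, a factor of preadipocyte commitment, had 2 members inside the gene at 64.7 and 11 kb from its nearest start sites. Id2, an inhibitor of bHLH factors, had 2 members at 173.3 and 214.5 kb. Klf5 had 1 at 169.3 kb, the STAT5 family gene Stat5b 1 at 6.65 kb, and Ppargc1a, which encodes the co-activator PGC-1α, 1 at 265.8 kb. None of those at Zfp423, Id2, Klf5, Stat5b and Ppargc1a was under SETD5-V5 at 6 h. The promoters of all these genes except Klf15 had H3K27ac in all 8 libraries.

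Of 35 adipocyte genes, 5 (14.3%) had a member, against 5.15% of all protein-coding genes, and 91.4% of the list was nearest to some 48 h H3K4me1 island, against 51% of all genes. A member 8.18 kb upstream of Angptl4, an inhibitor of lipoprotein lipase that responds to glucocorticoids and PPARγ, was under a SETD5-V5 island of 2800 bp in each replicate at 6 h, and under none at 0 h. The member 28.5 kb downstream of the start of Lpl, lipoprotein lipase itself, was under SETD5-V5 in replicate A alone. Those at Dgat2, which makes triglyceride, at Mgll, which breaks down monoglyceride, and at Irs2, an insulin receptor substrate, were under none. Among 28 glucocorticoid and cAMP responsive genes, Angptl4, Dusp1, Zbtb16 and Errfi1 had 1 member each (14.3% of the list), against 5.15% of all protein-coding genes. Of this list, 85.7% was nearest to some 48 h H3K4me1 island, against 51% of all genes. Its median was 5 islands per gene, against 1 over all protein-coding genes. The member at Dusp1, a dual-specificity phosphatase, lay 38.5 kb downstream of the start site, 0.6 kb from empty-vector H3K27ac at 48 h in both replicates and 14.6 and 14 kb from it at 0 h, and was under SETD5-V5 in both replicates at 6 h. At Zbtb16, which encodes the zinc finger factor PLZF, the intronic member lay 1 and 1.4 kb from empty-vector H3K27ac at 48 h and 8.4 and 77.4 kb at 0 h, with no SETD5-V5.

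Anti-adipogenic and mesenchymal factors had members at 11 of 36 genes (30.6%), the highest share of any list, against 5.15% of all protein-coding genes. They also had a median of 9 H3K4me1 islands per gene at 48 h, against 1 over all protein-coding genes. Runx1, a Runt-domain factor, had 3 members 94, 270.5 and 376.8 kb upstream, all under SETD5-V5 in replicate A at 6 h and 2 of them in both replicates. Tcf7l2, a nuclear effector of Wnt signalling, had 2, 1 of them under SETD5-V5 in both replicates, and Sox9 had 2, 1 of them under it in replicate A alone. The member in an intron of Tbx15, a T-box factor, was under SETD5-V5 islands of 25000 bp and 14200 bp in replicates A and B. The members at Klf3 and at Tead1, which encodes a factor of the Hippo pathway, were under none. Wnt pathway genes had members at 4 of 36 genes (11.1%), all 4 Wnt ligands: Wnt1, Wnt4, Wnt7a and Wnt11. Of this list, 91.7% was nearest to some 48 h H3K4me1 island, against 51% of all genes, with a median of 3 islands per gene. Only the Wnt1 member, 5.08 kb downstream of the start, was under SETD5-V5, in both replicates, and the promoters of Wnt1, Wnt7a and Wnt11 had no H3K27ac in any library.

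TGF-β and BMP genes had members at 3 of 34 genes (8.82%), against 5.15% of all protein-coding genes. These were the receptor-activated Smad5, the inhibitory Smad7 and the activin subunit gene Inhbb, all without SETD5-V5 at 6 h. Of this list, 85.3% was nearest to some 48 h H3K4me1 island, against 51% of all genes. Its median was 3 islands per gene, against 1 over all protein-coding genes. Extracellular matrix genes had members at 5 of 39 (12.8%), the collagen genes Col1a2, Col4a1, Col5a1 and Col6a3 and the thrombospondin gene Thbs2, against 5.15% of all protein-coding genes. This list had a median of 9 H3K4me1 islands per gene at 48 h. Except for Col4a1, these were under no SETD5-V5 island at 6 h. In lists for other cell types, members were nearest to 0 of 22 muscle genes and 1 of 26 neural genes (Gria1, 3.85%). They were nearest to 1 of 21 blood and macrophage genes (Itgam, 4.76%) and 1 of 15 endothelial genes (Flt1, with 2 members, 6.67%). The share over all protein-coding genes was 5.15%. Within 50 kb of a member lay 13.6% of the muscle, 3.85% of the neural, 4.76% of the blood and 13.3% of the endothelial genes, against 10.8% of all. The genes of these lists had a median of 0 H3K4me1 islands at 48 h in the muscle, neural and blood lists and of 3 in the endothelial list.

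The promoters of the 1152 nearest genes had H3K27ac more often than promoters at large, with like shares at 0 h and 48 h. In empty-vector cells H3K27ac lay at 62.6% of them in replicate A and 60.9% in replicate B at 0 h, and at 64% and 62.9% at 48 h. Over all protein-coding genes the shares were 47.9% and 46.7% at 0 h and 49.1% and 47.7% at 48 h. In SETD5-V5 cells the nearest genes had 63.1% and 63% at 0 h and 64.1% and 64.7% at 48 h, and all genes 48.9% and 47.9% at 0 h and 49.3% and 49.6% at 48 h. At nearest genes the mean difference between 48 h and 0 h was 1.69 ± 0.43 points in empty-vector cells (SD of the differences within letters A and B, n = 2, exact two-sided permutation p = 0.333) and 1.3 ± 0.491 points in SETD5-V5 cells (n = 2, exact permutation p = 0.333), where 0.333 is the smallest p possible. Genes nearest to any 48 h island had a like level, 64.6% ± 1.1 at 0 h and 66.3% ± 1.15 at 48 h in empty-vector cells (SD, n = 2). Genes nearest to gained islands with H3K27ac went from 73.6% ± 0.813 to 79.7% ± 1.29 (SD, n = 2).

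A small number of the nearest genes acquired promoter H3K27ac. In empty-vector cells 30 (2.6%) had it in neither replicate at 0 h and in both at 48 h, against 1.96% of all protein-coding genes and 2.79% of genes nearest to any 48 h island. In the same sense 15 (1.3%) lost it, against 1.26% and 1.75%. In SETD5-V5 cells 20 (1.74%) gained it, against 1.38% and 1.89%, and 8 (0.694%) lost it, against 0.831% and 1.27%. Of the 30, 8 had promoter H3K27ac in neither SETD5-V5 replicate at 48 h: Klf15, Scarb1, Slc13a3, Slc13a4, Krt15, Lypd6b, Nod2 and Ugt1a1. The same held for 99 of the 438 gaining genes among all protein-coding genes and for 74 of 318 among genes nearest to any 48 h island, shares close to that of the members' genes. Scarb1, which encodes the HDL receptor SR-BI, had 2 members, neither under SETD5-V5. Ugt1a1, which encodes a glucuronosyltransferase, was the only one of the 8 whose member was under SETD5-V5 in both replicates. Epas1 was among the rest of the 30, with 3 members, 2 of them under SETD5-V5 in both replicates, and promoter H3K27ac in both SETD5-V5 replicates at 48 h. The H3K27ac lists carried the marks of the cell line: promoters of 6 or 7 of 7 fibroblast genes were marked in every library, those of 1 of 5 adipocyte genes at 0 h and of 5 in empty-vector and 4 in SETD5-V5 cells at 48 h, and those of 0 of 8 genes of blood, endothelial, muscle, epithelial and neural cells.

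The DNA of members held more AP-1 letters than its surroundings. TGACTCA occurred 964 times, 0.27 per kb, against 0.171 per kb in flanks of equal length on both sides, a ratio of 1.59 (95% counting interval, exact binomial, 1.46 to 1.73). The ratio was 1.41 over all 48 h islands, 1.38 in gained islands with H3K27ac and 1.47 in kept islands without it. Within the class, members under SETD5-V5 in both replicates had 0.316 per kb and a ratio of 1.95, and 57.9% of them held the motif, whereas members under neither had 0.244 per kb and a ratio of 1.44, and 43.5% held it. In the central 1000 bp of members the ratio was 1.22, where the flanks still lie largely inside the island. There it was 1.29 over all 48 h islands and 1.35 in gained islands with H3K27ac. Kept islands had 1.24 without H3K27ac and 1.18 with it, so members lay within the range of the other classes. Members under SETD5-V5 in both replicates had a central ratio of 1.32, and those under neither 1.18.

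The C/EBP letters TTGCNNAA were close to the level of the flanks, with 0.413 per kb against 0.385, a ratio of 1.07 (counting interval 1.01 to 1.14), equal to that of all 48 h islands. It was 1.14 in gained islands with H3K27ac. The glucocorticoid receptor palindrome GNACANNNTGTNC had 80 matches in members, a ratio of 1.18 against 1.28 over all 48 h islands. In members under SETD5-V5 in both replicates it had 26 matches, a ratio of 2, and 10% of these members held it, against 6% of all 48 h islands, whose median length was 2000 bp against 2600 bp. The GR direction turned in the central 1000 bp, where the ratio was 0.563 in members (20 matches) and 0.7 in those under SETD5-V5 in both replicates (7 matches), against 1.25 over all 48 h islands. The CREB site TGACGTCA, which responds to cAMP, had 39 matches and a ratio of 1.56, against 1.01 over all 48 h islands. TEAD (GGAATG) had a ratio of 1, the nuclear receptor motif AGGTCA 1.15, EBF (CCCNNGGG) 1.16, FOX (TGTTTAC) 1.1, STAT (TTCNNNGAA) 0.94 and ETS (CCGGAAGT, 34 matches) 0.944. The PPAR-RXR element AGGTCANAGGTCA, which counts as 2 matches to AGGTCA as well, had 9 matches in members and 26 in their flanks. Its ratio was 0.692, against 1.13 over all 48 h islands. The NFI palindrome had 3 matches. Matches were counted on both strands, and a match is a run of letters, not evidence of binding.

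**Figure D4:**
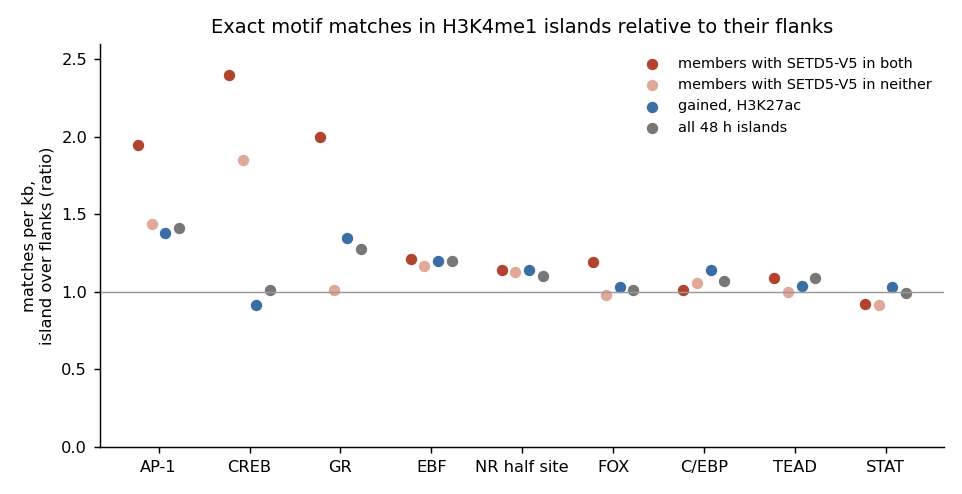
Exact motif matches per kb of island divided by matches per kb of its flanks (ratio, axis from 0, line at 1) for members under SETD5-V5 in both replicates at 6 h (dark red) or in neither (pale red), gained islands with H3K27ac (blue) and all 48 h islands (grey). AP-1 stands at 1.95 in members under SETD5-V5 and at 1.44 in those under neither (1.32 and 1.18 in the central 1000 bp, not drawn). The glucocorticoid receptor (GR) stands at 2 and 1.01 (0.7 and 0.409 in the central 1000 bp, not drawn). The CREB points rest on 6 and 25 matches in the 2 sets of members.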

How the data were processed

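ChIP-seq island lists of 16 libraries from 3T3-L1 cells were analysed. The authors aligned 36-base reads to the mm9 genome (ELAND or Bowtie2) and ran SICER or SICER2 on each library by itself with a 200 bp window and an E-value of 100. The gap was 400 bp for H3K4me1 and H3K27ac and 600 bp for SETD5. The study took its control input for display from earlier published data, and whether SICER used it is not given in the sources used here. Each deposited list gives position and the authors' score, used here only within the H3K4me1 and SETD5-V5 lists. Start positions were written 1-based.

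Overlap meant at least 1 bp. Genes came from the GENCODE annotation of NCBIM37, and the nearest start site of a protein-coding gene was taken from the centre of the island. Named were the 8 members with the highest score, the 8 highest with SETD5-V5 in both replicates at 6 h, the 8 genes with most members, all adipogenic regulators with a member and up to 6 genes of each other list. Of the 32 adipogenic regulators, 31 were matched. Shares were compared over libraries with exact permutation tests, and p-values measure only the spread between these libraries. Members and lists were chosen with earlier results of these data known.

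Alternatives were other overlaps, distances, scores, lists and promoter widths, equal list lengths, each replicate left out and a replicate block. Python 3.11.15, numpy 2.4.6, scipy 1.17.1, pysam 0.24.0, matplotlib 3.10.9 and bedtools 2.31.1 were used. The code was tested on simulated data and against bedtools, where 0 of 16 lists differed.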

Additional observations from a re-analysis of the deposited data

How the results depend on the processing

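The number of members, 1391, was 2952 when only overlaps of at least 50% of the island excluded it, 567 with no excluded mark within 5000 bp, 8657 without a score threshold, 162 above the upper quartile and 812 without chromosomes 5, 6, 17 and 19, an alternative chosen after seeing the data. The mean share under SETD5-V5 at 6 h, 27.1%, was 16.2% with SETD5-V5 islands above their median score, 18.6% when both replicates were required, 19.5% for members with no mark within 5000 bp and 19.9% without a score threshold. It was 13.3% for members of 600 bp or less and 10.2% for those over 600 to 1000 bp, and ran from 22.1% to 32.1% with 1 replicate left out. Without the 4 chromosomes it was 28.9%. Introns and intergenic sequence held 92.2% of members, and 85.1% with promoters of 2500 bp on both sides. Nearest genes numbered 2418 within 50 kb and 713 without the 4 chromosomes. The AP-1 ratio was 1.22 in the central 1000 bp, against 1.29 over all 48 h islands.

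With the letters as a replicate block, the difference between 6 h and 0 h was 18.8 ± 1.93 points (exact sign-flip p = 0.5, the smallest for 2 pairs), and the promoter differences were 1.69 and 1.3 points. Replicate A exceeded B at both times, and no source says that a letter marks a shared batch. With these sizes no p could pass a threshold with or without the block. With repeats masked, motifs were not run, because the genome used carries no mask. With promoters of 2500 bp on both sides, the promoter difference in SETD5-V5 cells was 0.738 points (exact permutation p = 0.667), so the 48 h libraries no longer all lay above those of 0 h. For start sites within 50 kb the empty-vector difference was 2.55 points. GR ratios under 1 in the central 1000 bp are given with the motifs. The remaining alternatives for the counts, shares and differences kept their direction.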

Other observations

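A further 312 gained islands above the score threshold had no H3K27ac in the 4 empty-vector lists and were left out only because a list from SETD5-V5 cells held H3K27ac there. Counting any 1 of the 8 H3K27ac lists, 324 islands were left out by a single library. With the empty-vector lists alone the class would hold 1703 islands. The 7266 gained islands without H3K27ac at or below the score threshold were overlapped by SETD5-V5 at 6 h at 21.4% in replicate A and 15.6% in replicate B, below the members in each replicate, and had a median length of 1600 bp.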
